A study of Homo sapiens with 6 samples.

Results

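The aryl hydrocarbon receptor gene AHR, its partners ARNT and ARNT2, the genes of the restraining factors AHRR and TIPARP, and the cytochrome P450 genes CYP1A1 and CYP1B1 were followed in CHL-1 cells upon CREM knockdown. These 7 of the 21625 genes in the deposited tables were taken by symbol from the table of CPM (counts of a gene scaled to the normalized depth of its library). They were chosen by their fold changes in this same comparison, so their differences are given as a description without a p-value. The tested cells received 50 nM CREM siRNA for 48 h and are labelled CREM knockdown. Their controls received Control siRNA, a mix of non-targeting siRNAs, and are labelled WT, with 3 libraries in each group. CHL-1 is an established human melanoma cell line that carries the EWSR1::CREM fusion gene. The siRNA pool is directed against the DNA-binding part of CREM. Loss of the fusion and loss of wild type CREM therefore cannot be told apart in this comparison. The study describes triplicate experiments but not whether each library had a culture of its own, so p-values here reflect the spread among the libraries alone, part of which may be technical.

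AHR is a transcription factor of the bHLH-PAS family that rests in the cytosol with HSP90 chaperones. When it binds a ligand such as a dioxin, a polycyclic aromatic hydrocarbon or a tryptophan metabolite, it enters the nucleus, pairs with ARNT and binds xenobiotic response elements. Its best known targets are CYP1A1 and CYP1B1, enzymes that oxidize aromatic hydrocarbons and estrogens, together with AHRR and TIPARP, which act back on the receptor as repressors. AHR is also expressed in cells of the skin, melanocytes included.

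The libraries held 17221794 to 29793837 reads, the fewest in Control siRNA replicate 1. CREM was at 14.8, 16.9 and 15.5 CPM with CREM siRNA and at 268, 286 and 287 CPM with Control siRNA, and it fell by 3.71 on the log2 scale (SE 0.0567, adjusted p = 3.43e-12 from limma). Of the 9 melanocyte lineage markers 6 were tested, with a median log2 difference of 0.68. Among these, 5 were higher upon knockdown (limma, adjusted p under 0.05), as were 36.6% of all genes tested. The 9 together summed to 3032 to 3193 CPM with CREM siRNA and to 1125 to 1195 CPM with Control siRNA. TYR stayed under 1 CPM in every library. Replicate 3 of each group stood apart in PMEL, at 23.5 CPM with CREM siRNA and 5.47 CPM with Control siRNA, against 1.05 to 2.29 CPM in the other 4 libraries. The epithelial markers summed to 2.54 to 3.44 CPM with CREM siRNA and to 4.37 to 5.26 CPM with Control siRNA, and the leukocyte markers to 1.57 to 2.47 and 9.75 to 11.0 CPM. These sums rest on few genes, since 6 of 7 epithelial and 3 of 5 leukocyte markers stayed under 1 CPM in every library. The part of these marker differences in the values that follow was not tested. In these bulk samples fewer cells of a type and less RNA per cell cannot be told apart.

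Promoter windows were looked up for all 7 genes, and those of AHR and of its known target genes are shown. RefSeq windows of 300 bases (250 before to 50 after a transcript start, GRCh38.p14) were found for 5 of the 7 genes, with 8 windows in all, and ARNT2 and CYP1B1 had no entry. The letters GCGTG, the core of the xenobiotic response element, and TGACG, a short form of the cAMP response element to which CREM family proteins bind, were searched on both strands and are shown in capitals. AHR is shown from chr7:17298402-17298701 on the plus strand, AHRR from chr5:321464-321763 on the plus strand, TIPARP from chr3:156674340-156674639 on the plus strand and CYP1A1 from chr15:74725479-74725778 on the minus strand, each 5′ to 3′ along its gene.
AHR: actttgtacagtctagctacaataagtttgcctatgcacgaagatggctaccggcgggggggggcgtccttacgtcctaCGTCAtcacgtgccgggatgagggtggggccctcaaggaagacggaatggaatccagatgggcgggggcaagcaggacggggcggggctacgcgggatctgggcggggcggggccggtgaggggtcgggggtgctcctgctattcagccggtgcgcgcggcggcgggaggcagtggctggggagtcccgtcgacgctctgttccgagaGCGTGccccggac
AHRR: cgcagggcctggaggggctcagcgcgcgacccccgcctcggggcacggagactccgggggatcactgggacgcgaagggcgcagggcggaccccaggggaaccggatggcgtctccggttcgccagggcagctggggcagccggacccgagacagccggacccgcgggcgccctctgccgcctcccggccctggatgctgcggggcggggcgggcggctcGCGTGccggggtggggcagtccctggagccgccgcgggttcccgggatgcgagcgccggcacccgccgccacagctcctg
TIPARP: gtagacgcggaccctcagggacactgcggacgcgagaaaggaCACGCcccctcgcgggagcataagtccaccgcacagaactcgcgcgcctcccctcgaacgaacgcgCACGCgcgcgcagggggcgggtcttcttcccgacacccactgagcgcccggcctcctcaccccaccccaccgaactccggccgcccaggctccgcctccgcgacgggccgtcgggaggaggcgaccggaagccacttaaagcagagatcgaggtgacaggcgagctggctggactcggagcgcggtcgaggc
CYP1A1: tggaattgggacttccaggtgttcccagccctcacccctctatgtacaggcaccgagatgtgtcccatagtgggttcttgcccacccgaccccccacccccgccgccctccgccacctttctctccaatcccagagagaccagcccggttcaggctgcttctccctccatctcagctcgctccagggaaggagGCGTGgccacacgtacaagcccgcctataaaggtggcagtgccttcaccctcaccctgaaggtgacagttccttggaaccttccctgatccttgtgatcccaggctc

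The AHR window held 1 TGACG, read on the minus strand and beginning 171 bases before the start, and 1 GCGTG 37 bases after it. The TIPARP window shown held 2 GCGTG on the minus strand, the CYP1A1 window 1 at 57 bases before the start, and the AHRR window 1 at 30 bases before the start. The AHRR match was also a match to the longer form TNGCGTG, which includes GCGTG. Among the windows not shown, the other AHRR start held 2 GCGTG and 1 TGACG, the other TIPARP starts held 1 TGACG each, and the ARNT window held neither motif. None of the 8 windows held the full element TGACGTCA, which includes TGACG on both strands. Of 35116 RefSeq windows of the same length, 36.5% held GCGTG, 5.51% held TNGCGTG, 24.6% held TGACG and 1.85% held TGACGTCA. These are matches of letters and were not tested for binding.

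AHR itself was among the genes that differed most. AHR reached 378, 319 and 337 CPM with CREM siRNA, against 37.5, 32.0 and 28.9 CPM with Control siRNA. The lowest CREM siRNA library lay 8.51 times above the highest Control siRNA library, and the group means, 345 ± 30.0 and 32.8 ± 4.38 CPM (SD, n = 3 each), differed 10.5-fold. On log2(RPKM + 1), where RPKM is CPM per kb of gene length and the added 1 makes changes of low genes smaller, the difference was 3.17 (SE 0.0860). By this measure AHR ranked number 24 from the top of 12407 tested genes, those averaging 1 RPKM or more. AHR lies on chromosome 7 of GRCh38 from 16916359 to 17346152 in GENCODE, and its counted length was 6247 bp.

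**Figure D1:**
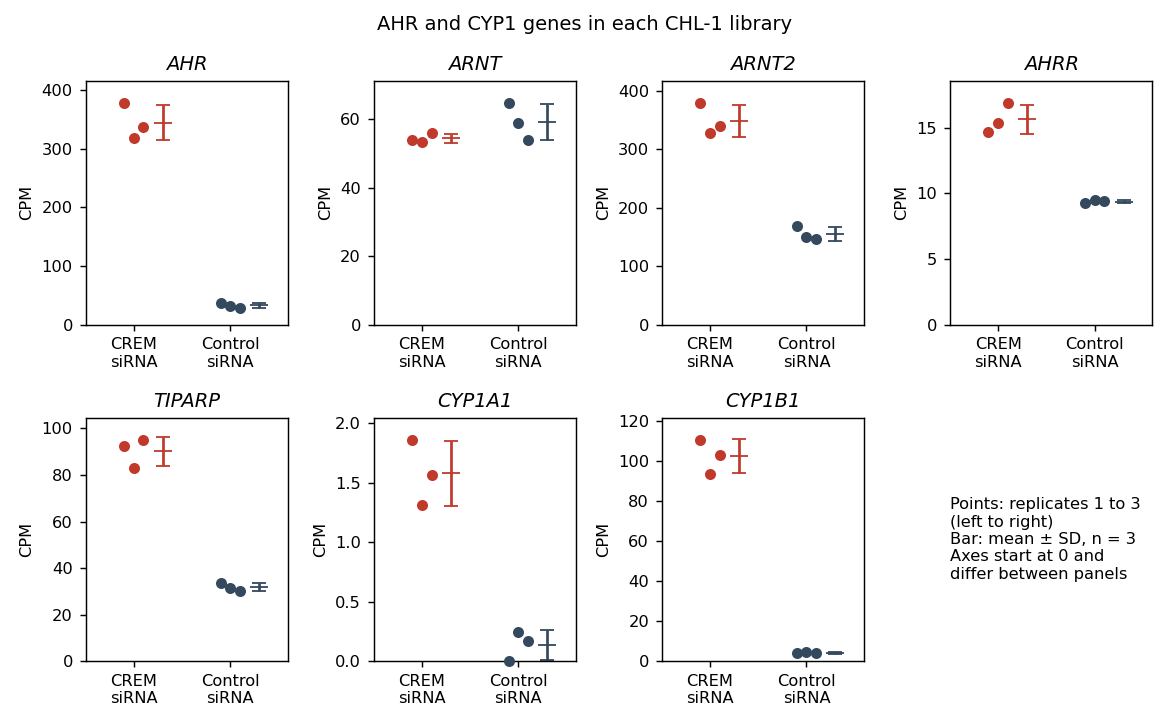
CPM of the 7 genes (linear axes from 0, a scale of its own for each gene) in the 3 CREM siRNA libraries (red, left) and the 3 Control siRNA libraries (dark, right), with bars for mean ± SD. The groups do not overlap for 6 genes, and for ARNT the Control siRNA values of 54.0 to 64.8 CPM overlap those with CREM siRNA.

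ARNT, the partner with which AHR binds DNA and which also pairs with the hypoxia-inducible factors, was at 53.9, 53.5 and 56.0 CPM with CREM siRNA and at 64.8, 59.0 and 54.0 CPM with Control siRNA. The groups overlapped. The log2 difference of ARNT was -0.11 (SE 0.0653), and it turned to 0.070 after scaling to GAPDH and to 0.11 after scaling to a set of reference genes. ARNT2, a paralog of ARNT best known from neurons and also able to pair with bHLH-PAS factors, was at 378, 327 and 340 CPM with CREM siRNA and at 168, 149 and 146 CPM with Control siRNA. Every CREM siRNA library lay above every Control siRNA library, and the means of 348 ± 26.9 and 155 ± 12.0 CPM (SD, n = 3 each) differed 2.25-fold. The log2 difference of ARNT2 was 1.14 (SE 0.0682). ARNT lies on chromosome 1 from 150809705 to 150876768 and ARNT2 on chromosome 15 from 80404350 to 80597937.

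TIPARP, a poly(ADP-ribose) polymerase family member that mono-ADP-ribosylates AHR, was at 92.4, 82.9 and 95.0 CPM with CREM siRNA and at 33.6, 31.5 and 30.1 CPM with Control siRNA. The groups did not overlap, and the means of 90.1 ± 6.35 and 31.8 ± 1.74 CPM (SD, n = 3 each) differed 2.84-fold, with a log2 difference of 1.36 (SE 0.0645). AHRR, which competes with AHR for ARNT, was at 14.7, 15.3 and 16.9 CPM with CREM siRNA and at 9.23, 9.48 and 9.42 CPM with Control siRNA. It differed least among the members whose groups did not overlap, 1.67-fold in CPM and 0.50 (SE 0.0669) on the log2 scale. TIPARP lies on chromosome 3 from 156673235 to 156706770 and AHRR on chromosome 5 from 304176 to 438291.

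CYP1B1, which hydroxylates estradiol and aromatic hydrocarbons outside the liver, was at 110, 93.3 and 103 CPM with CREM siRNA and at 3.98, 4.70 and 4.00 CPM with Control siRNA. The libraries of each group lay close together, and the lowest with CREM siRNA was 19.9 times the highest with Control siRNA. The means of 102 ± 8.60 and 4.23 ± 0.410 CPM (SD, n = 3 each) differed 24.2-fold, the widest of the 7 genes. On log2(RPKM + 1) CYP1B1 differed by 3.52 (SE 0.0718), number 11 from the top. The size was 4.59 with edgeR on the reads, where the 1 is not added to RPKM. CYP1B1 reached the mean of 1 RPKM only through the CREM siRNA group, since it was at 0.820 ± 0.0795 RPKM (SD, n = 3) with Control siRNA. It lies on chromosome 2 from 38066973 to 38109902.

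CYP1A1, a classical marker of AHR activity, was near the limit of detection. It had 55, 32 and 39 reads with CREM siRNA and 0, 6 and 4 reads with Control siRNA, or 1.86, 1.31 and 1.57 CPM against 0, 0.245 and 0.168 CPM. The count of 0 in Control siRNA replicate 1 allows up to 0.173 CPM (3 reads). The groups did not overlap, and the summed reads of 126 and 10 gave a ratio of 10.5 at equal normalized depth (95% exact Clopper-Pearson interval 5.51 to 22.4, for counting error only). With a mean under 1 RPKM the gene did not enter the test across genes, and its difference of 0.59 on log2(RPKM + 1) was reduced by the added 1 more than that of any other member. It lies on chromosome 15 from 74719542 to 74725610.

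Counted over the list, 6 of the 7 genes had all CREM siRNA values above all Control siRNA values and 0 had all below. Without the untested CYP1A1 this held for 5 of 6. Among the 12407 genes tested, 38.1% did not overlap in the higher direction and 76.2% in either direction. A log2 difference of at least 1 was seen in 4 members, AHR, ARNT2, CYP1B1 and TIPARP, and in 5.78% of the genes tested. The median log2 difference of the 7 was 1.14 and that of the 6 tested was 1.25. For all genes tested the median was 0.0037 and that of their sizes 0.35. Since the comparison was used to choose the members, nothing is read from these counts.

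**Figure D2:**
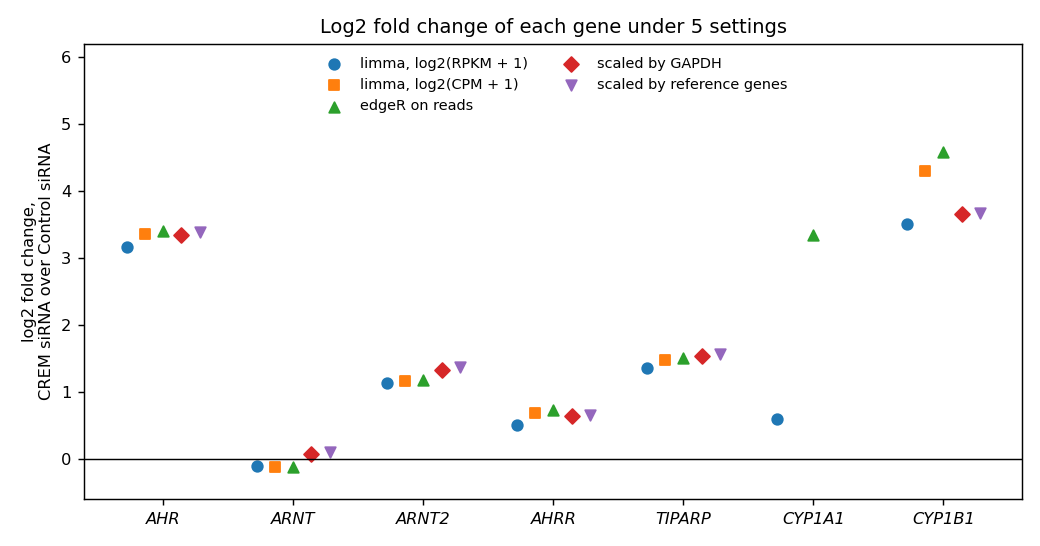
Log2 fold change of each gene (CREM siRNA over Control siRNA, linear axis) under 5 settings, of which 2 gave a value for CYP1A1. ARNT crosses 0, CYP1B1 runs from 3.52 to 4.59 and CYP1A1 from 0.59 to 3.34, the high ends being those of edgeR on the reads.

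Per length, the order of the 7 genes differed between the groups. With CREM siRNA, AHR (55.2 ± 4.81 RPKM, SD, n = 3) and ARNT2 (53.1 ± 4.10 RPKM) came first and their ranges overlapped, although AHR was the higher within each library. CYP1B1 (19.8 ± 1.67 RPKM), TIPARP (16.6 ± 1.17 RPKM), ARNT (10.8 ± 0.270 RPKM), AHRR (2.76 ± 0.197 RPKM) and CYP1A1 (0.588 ± 0.102 RPKM) followed without overlap. With Control siRNA, ARNT2 (23.6 ± 1.83 RPKM) came first, then ARNT (11.8 ± 1.07 RPKM), TIPARP (5.85 ± 0.321 RPKM) and AHR (5.25 ± 0.701 RPKM), the last pair overlapping. AHRR (1.66 ± 0.0228 RPKM), CYP1B1 and CYP1A1 (0.0513 ± 0.0467 RPKM) came last. By RPKM AHR stood above 91.2% of the tested genes in the CREM siRNA group and above 32.6% in the Control siRNA group.

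**Figure D3:**
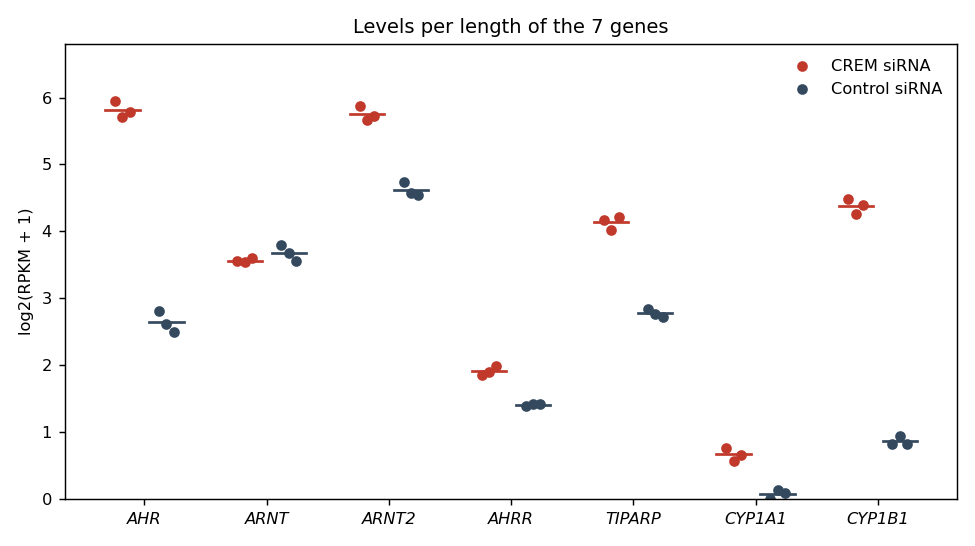
Level per length, as log2(RPKM + 1), of the 7 genes in CREM siRNA libraries (red, left of each pair) and Control siRNA libraries (dark, right), with a line at the mean of 3 libraries. AHR reaches the level of ARNT2 with CREM siRNA (55.2 and 53.1 RPKM) and lies below it with Control siRNA (5.25 and 23.6 RPKM).

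Ratios within a library do not depend on how libraries are scaled. The RPKM ratio of AHR to ARNT was 5.65, 4.81 and 4.85 with CREM siRNA and 0.467, 0.437 and 0.431 with Control siRNA, so the AHR transcript outnumbered that of ARNT in each CREM siRNA library and in no Control siRNA library. Set against ARNT and ARNT2 together, AHR was at 0.884, 0.845 and 0.857 with CREM siRNA and at 0.156, 0.149 and 0.140 with Control siRNA. ARNT2 exceeded ARNT in all 6 libraries, 4.66 to 5.39 times with CREM siRNA and 1.94 to 2.08 times with Control siRNA. AHRR made up 4.30, 5.31 and 5.53% of the AHR level with CREM siRNA and 27.2, 32.7 and 36.0% with Control siRNA, since both genes were higher upon knockdown but AHR by more. CYP1B1 was 30.9 to 37.1 times CYP1A1 with CREM siRNA and 9.98 and 12.4 times in the Control siRNA libraries that had reads of CYP1A1.

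**Figure D4:**
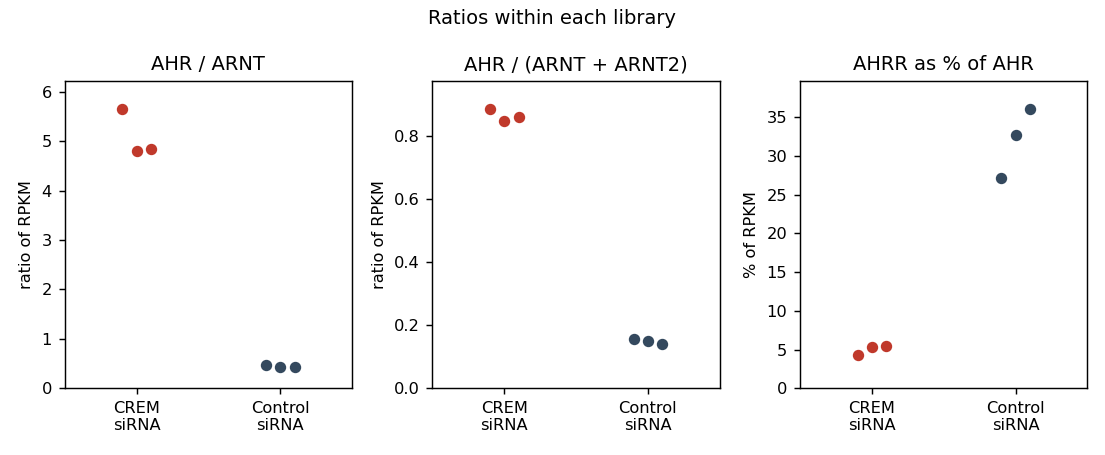
Ratios of RPKM within each of the 6 libraries (linear axes from 0), CREM siRNA in red and Control siRNA in dark. AHR over ARNT lies between 4.81 and 5.65 with CREM siRNA and between 0.431 and 0.467 with Control siRNA, and AHRR lies at 4.30 to 5.53% of AHR with CREM siRNA, against 27.2 to 36.0% with Control siRNA.

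The genes whose log2(RPKM + 1) followed the members most closely over the 6 libraries were found by Pearson's r, as a description. They were PPFIA1, ARID4A and HMGXB3 for AHR (r = 0.9998, 0.9998 and 0.9997), SLC38A7, RNF125 and LIMA1 for CYP1B1, and KIAA0930, STK3 and TBC1D20 for TIPARP. ARNT2 was followed by WASHC2C, PARP1 and ATP10B and AHRR by COL9A2, PNPLA2 and CYB5D2. The libraries of a group share their treatment, and 1004 tested genes reached r = 0.99 with AHR and 1081 with CYP1B1, so the order among them rests on small differences. ARNT had no gene above that value, its closest being MRPS2 (r = 0.974).

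Some reads may be shared with overlapping genes, since the kit marks strand but its use in counting is not stated in the sources. AC073332.1, antisense to AHR over 329038 bp of its GENCODE span, had no entry under this name in the deposited values. Most of that overlap lies before the RefSeq promoter window shown for AHR, which begins at 17298402. PDCD6, a calcium-binding protein gene, overlaps AHRR on the same strand over 49681 bp and rose to 95.9 ± 2.70 CPM with CREM siRNA, against 70.6 ± 1.58 CPM with Control siRNA (SD, n = 3 each; log2 difference 0.43, adjusted p = 6.79e-06 from limma). RMDN2, whose last 170 bp overlap CYP1B1 on the opposite strand, was at 13.6, 11.4 and 13.4 CPM with CREM siRNA and at 2.42, 3.43 and 3.37 CPM with Control siRNA. It rose by 1.24 on the log2 scale (adjusted p = 1.89e-07 from limma), and its part in the CYP1B1 value was not tested. RMDN2 reached the mean of 1 RPKM only through the CREM siRNA group. CYP1B1-AS1, antisense to CYP1B1, had at most 0.205 CPM in any library, and TIPARP-AS1, at the TIPARP promoter, at most 0.575 CPM. LINC00886 was under 0.5 CPM throughout, and CTSK, the cathepsin gene near ARNT, rose by 0.70 (adjusted p = 3.05e-05).

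Other genes were counted in 9 lists, drawn from AHR signaling, from the gene families of the members and from related metabolism. Of the 87 tested, 39 rose, 32 fell and 16 did not pass (limma, adjusted p under 0.05), with a median log2 difference of 0.073. Of all genes tested 36.6% were higher, 36.7% were lower and 73.4% differed in either direction by the same measure. After scaling to GAPDH 47 of the 87 rose and 26 fell, and after scaling to the reference genes 49 rose and 26 fell. Across all genes the counts shifted the same way, from 4544 higher and 4558 lower without these scalings. They were 5809 higher and 2967 lower with GAPDH, and 6680 higher and 3056 lower with the reference genes. The lists were written with earlier results of these data known, and each of the 9 held genes that rose and genes that fell.

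Among the 6 chaperone genes of the cytosolic receptor complex, 2 rose and 4 fell (median -0.31). HSP90AA1 and HSP90AB1, which encode the HSP90 proteins that hold AHR ready for ligand, fell by 0.73 and 0.56 on the log2 scale (adjusted p = 8.91e-07 and 1.15e-06 from limma), and PTGES3, the p23 cochaperone, by 0.43. SRC, a kinase gene, rose by 0.22 (adjusted p = 0.00136 from limma). Of 9 tested bHLH-PAS genes other than the members, 3 rose, 5 fell and 1 did not pass (median -0.44). HIF1A, the hypoxia-inducible partner of ARNT, fell to 114 ± 5.07 CPM with CREM siRNA, against 247 ± 21.0 CPM with Control siRNA (SD, n = 3 each; adjusted p = 6.16e-08 from limma). EPAS1, the related factor HIF-2 alpha, rose by 0.95, and SIM2 and ARNTL rose by 0.53 and 0.31. HIF3A and ARNTL2 fell by 1.29 and 1.11. EPAS1 reached the mean of 1 RPKM only through the CREM siRNA group and HIF3A only through the Control siRNA group.

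Of 12 tested coregulator genes, 6 rose, 2 fell and 4 did not pass (median 0.093). NCOA2 and NCOA3, the p160 coactivators, rose by 0.77 and 0.63 (adjusted p = 2.88e-06 and 1.63e-05 from limma) and the acetyltransferase gene CREBBP by 0.60. SMARCA4, the BRG1 remodeling ATPase, fell by 0.73, and SIN3A, a corepressor scaffold, by 0.32. The fall of SIN3A did not pass after scaling to GAPDH or to the reference genes, where 1 of the 12 fell, while 4 fell without Control siRNA replicate 3.

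Of 13 genes known to be induced through AHR in other cells, 4 reached 1 RPKM, and 2 rose, 1 fell and 1 did not pass (median 0.65). NQO1, a quinone reductase that responds to both AHR and NRF2, was at 557 ± 8.06 CPM with CREM siRNA and at 188 ± 8.92 CPM with Control siRNA (SD, n = 3 each), a rise of 1.56 on the log2 scale (adjusted p = 3.62e-10 from limma). NFE2L2, which encodes NRF2, rose by 1.44 (adjusted p = 7.66e-10). SERPINB2, plasminogen activator inhibitor type 2, fell to 0.285 ± 0.143 CPM, against 12.0 ± 1.08 CPM (adjusted p = 3.51e-10 from limma). SERPINB2 reached the mean of 1 RPKM only through the Control siRNA group. Below 1 RPKM and untested were STC2, at 0.232 ± 0.0797 CPM with CREM siRNA and 4.09 ± 0.0861 CPM with Control siRNA, and EREG, at 0.157 ± 0.143 and 1.34 ± 0.232 CPM, both named after their values were seen.

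**Figure D5:**
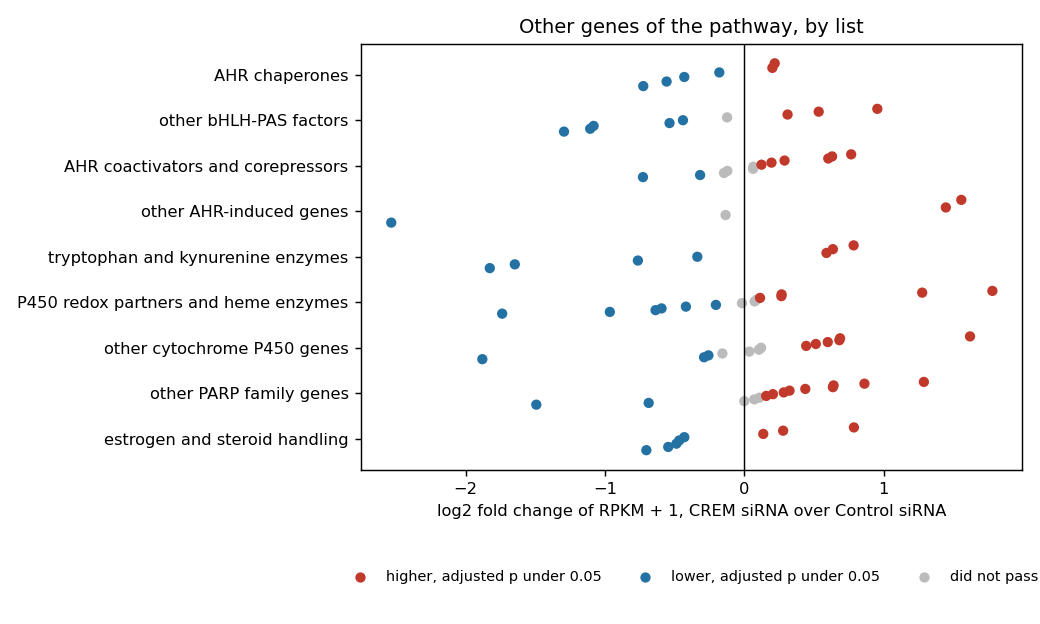
Log2 fold change of RPKM + 1 (CREM siRNA over Control siRNA) of each tested gene in the 9 gene lists, red where it rose and blue where it fell at an adjusted p under 0.05, grey where it did not pass. Each list holds genes on both sides of 0, from SERPINB2 at -2.53 to HMOX1 at 1.78.

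Genes of tryptophan uptake and of tryptophan and kynurenine metabolism also moved in both directions, with 3 rising and 4 falling among 7 tested (median -0.34). SLC7A5 and SLC3A2, the subunits of the transporter that takes up tryptophan, fell by 1.83 and 0.76 (adjusted p = 3.27e-10 and 3.67e-08 from limma), and KYNU, kynureninase, fell by 1.65. KYAT3 and AADAT, aminotransferases that act on kynurenine, and AFMID, the formamidase, rose by 0.78, 0.63 and 0.59. IDO1 and IDO2, which open the tryptophan ring, were untested and are named after their values were seen, with means of 0.156 and 0 CPM with CREM siRNA and of 0.230 and 0.033 CPM with Control siRNA.

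POR, the reductase that feeds electrons to microsomal P450 enzymes such as CYP1B1, was at 78.1, 78.6 and 85.0 CPM with CREM siRNA and at 273, 278 and 272 CPM with Control siRNA. It fell by 1.74 on the log2 scale (SE 0.0477, limma adjusted p = 1.26e-10), and the groups did not overlap. Among 14 redox partners and heme genes, 5 rose, 6 fell and 3 did not pass (median 0.028), and 8 rose with scaling by reference genes. HMOX1, heme oxygenase, and ALAD, of heme synthesis, rose by 1.78 and 1.27, and CPOX by 0.26. CYB5B, a cytochrome b5, fell by 0.97.

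Of 13 tested P450 genes outside the CYP1 family, 6 rose, 3 fell and 4 did not pass (median 0.12). CYP27A1, the sterol 27-hydroxylase, rose to 68.1 ± 2.85 CPM with CREM siRNA, against 20.7 ± 1.39 CPM with Control siRNA (SD, n = 3 each; log2 difference 1.62, adjusted p = 1.11e-09 from limma), and CYP7B1 and CYP2U1 rose by 0.68 and 0.51. CYP24A1, which breaks down vitamin D, fell to 0.146 ± 0.0976 CPM, against 9.77 ± 0.358 CPM (adjusted p = 1.09e-09 from limma). CYP24A1 reached the mean of 1 RPKM only through the Control siRNA group, and CYP7B1 only through the CREM siRNA group. CYP51A1, of cholesterol synthesis, and CYP2R1, a vitamin D 25-hydroxylase, fell by 0.29 and 0.26. Neither fall passed after scaling to GAPDH or to the reference genes, where 1 of the 13 fell.

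Among 14 tested PARP family genes other than TIPARP, 9 rose, 2 fell and 3 did not pass (median 0.24). TNKS, tankyrase, rose to 1128 ± 113 CPM with CREM siRNA, against 456 ± 36.2 CPM with Control siRNA (SD, n = 3 each; log2 difference 1.29, adjusted p = 1.37e-07 from limma). PARP1 and PARP9 rose by 0.86 and 0.63, whereas PARP2 and PARP8 fell by 1.49 and 0.69. Of 8 tested genes of estrogen and steroid handling, 3 rose and 5 fell (median -0.45). HSD17B11 rose by 0.28 (adjusted p = 0.000853 from limma) and HSD17B4 by 0.13. The rise of HSD17B4 (adjusted p = 0.0383) did not pass when CREM siRNA replicate 1 or 3 or Control siRNA replicate 1 or 2 was left out, nor with DESeq2 or without the filter on low values. HSD17B12, HSD17B10 and STS, the steroid sulfatase, fell by 0.47, 0.43 and 0.55. ESR1, the estrogen receptor gene, was at 0.914 ± 0.312 CPM with CREM siRNA and at 0.772 ± 0.348 CPM with Control siRNA and was not tested, and it is named after its values were seen.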

How the data were processed

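mRNA of CHL-1 cells was sequenced in 3 CREM siRNA and 3 Control siRNA libraries. The authors deposited CPM values, and the same values per kb as RPKM, for 21625 genes. Per the submitters' processing notes R 3.6.1 and build hg38 were used, and aligner, counting program, annotation and strand setting are not given. Among the CPM values 100% were within 0.001 of whole multiples of 1 read, so reads were recovered. The CPM of a library summed to between 973557 and 1007039. The depth used was therefore not the total of the recovered reads alone, and how it was set is not given. RPKM columns were matched to samples by their group and experiment number. Their names also carry the word serum in both groups, and what it stands for is not known.

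The main test was limma 3.58.1 in R 4.3.3 (lmFit, eBayes with trend and robust variance) on log2(RPKM + 1) of 12407 genes averaging 1 RPKM or more, with Benjamini-Hochberg adjustment and a threshold of 0.05. Members above the filter were part of this fit, and no p-value or call is given for them. The members and lists were chosen with earlier results of these data known. Of each list, up to 3 genes in each direction with the lowest adjusted p are named, with CREM, GAPDH, the genes overlapping or adjoining a member and the 3 genes most correlated with each tested member. A few genes that this rule names are not reported here. Alternatives were a pseudocount of 0.1, no filter, scaling by GAPDH, the median ratio and reference genes, the CPM table, a block for the replicate number, the omission of single libraries, and edgeR 4.0.16 and DESeq2 1.42.0 on the recovered reads. The limma, edgeR and DESeq2 steps were tested on simulated data. Coordinates are those of GENCODE for GRCh38, promoter sequences those of RefSeq.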

Additional observations from a re-analysis of the deposited data

How the results depend on the processing

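In all 15 alternatives AHR, AHRR, ARNT2, CYP1B1 and TIPARP stayed higher upon CREM knockdown. CYP1A1 had a value only without the filter, with edgeR and with DESeq2, and stayed higher in each. ARNT changed sign after scaling to GAPDH (0.070) and to the reference genes (0.11). The size for AHR ran up to 3.40 and that for CYP1B1 up to 4.59, both with edgeR. CYP1A1 was at 3.34 with edgeR and 3.39 with DESeq2. Leaving out CREM siRNA replicate 3 or Control siRNA replicate 3 put all ARNT values of CREM siRNA below those of Control siRNA, so members without overlap in the lower direction numbered 0 to 1 when single libraries were left out, and those in the higher direction 6 throughout. Across all genes, 4544 were higher and 4558 lower. Scaling by GAPDH gave 5809 higher and 2967 lower and scaling by reference genes 6680 and 3056, and these scalings shifted the median of all genes by 0.18 and 0.21. GAPDH itself, at -0.19, was at 0.041 with scaling by reference genes.

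With the replicate number as a block, 4853 genes were higher and 4812 lower. Deviations of same-numbered libraries correlated at 0.27, -0.035 and 0.14, which is not over 0.1 for every pair. CREM siRNA replicates 1 and 3 correlated best with their own number and replicate 2 with Control siRNA replicate 3. The column names give the number as that of an experiment, and the sources do not say what the libraries of an experiment share, so the pairing was not settled. With the block 4 of the 12 coregulator genes fell, against 2 without it. Of 53 tested genes that the naming rule gives besides the members, 48 kept their call and direction in each alternative, and SIN3A, CYP51A1, CYP2R1, HSD17B4 and GAPDH did not. Depth limits CYP1A1 most, with 10 reads in the Control siRNA group.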
